A study of Mus musculus with 6 samples.

Results

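The genes described here carry out DNA repair and damage signalling, and were measured in fetal mouse thymocytes that were either fresh or stimulated through CD3 with or without an inhibitor of the transcriptional repressor Bcl6. They were chosen by symbol from a list of 38, with earlier results of these data known. Of the 38, 36 had a probe set assigned to that symbol alone, out of 19937 genes measured in all. Xrcc2 and Trp53 were not analysed here. Expression was read on 6 arrays of Thy1.2+ cells purified with magnets from E17.5 thymi of Rag1-/- embryos. The first pair of arrays came from fresh thymi with no stimulation (Control-0h, called fresh). The second pair came from cells kept 40 h with anti-CD3 and the vehicle DMSO (Control-DMSO-40h, called DMSO), and the third from cells kept 40 h with anti-CD3 and 50 µM 79-6 (79-6-40h, called 79-6), a small molecule that binds the BTB domain of Bcl6. The series' design describes fetal thymic organ cultures, whereas the sample labels mention stimulation only. All groups share the Rag1-/- genotype, so T cell receptor genes were not rearranged in any of them and the RAG recombinase, whose cuts are a source of programmed DNA breaks in normal thymocytes, was missing throughout. The labels do not say whether thymi were pooled or whether replicates came from separate litters, and each p-value below therefore reflects array-to-array spread, which may be technical.

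Broken DNA is mended by several routes. Homologous recombination copies the intact sister chromatid and is used in S and G2 phase, when its genes are also most expressed. Non-homologous end joining ligates the ends directly at any stage of the cycle and is the route that completes V(D)J recombination in thymocytes. The Fanconi anaemia proteins remove crosslinks between strands, mismatch repair corrects errors of copying, and the checkpoint kinases Atr and Atm, acting through Chek1 and Chek2, hold the cycle while repair proceeds. Thymocytes that receive a pre-T cell receptor signal, which anti-CD3 imitates in Rag1-/- cells, enter a burst of division.

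RefSeq promoters (GRCm38.p6), windows of 250 bases before to 50 after a transcription start, were listed for 30 of the 36 genes, in 33 windows. The E2F octamer, searched as TTTCCCGC or TTTGGCGC on both strands, stood in 7 of the 33 windows (21.2%), against 2.2% of the 19176 windows of the genes measured. E2F factors drive genes of the G1 to S transition. All 7 matches, in Bard1, Brca2, Chek2, Mdc1, Msh6, Rad51c and Xrcc6, were to the first octamer, and 0 of them overlapped a match to another motif searched. The NF-Y pentamer CCAAT stood in 54.5% of the member windows against 37.4%, and the CHR hexamers TTTGAA or TTCGAA in 9.1% against 16.5%. The 2 Rad54l windows cover almost the same bases and both count, and Rad51c has another window without the octamer. The octamer stood in 2 of 12 windows of members higher in DMSO than in fresh cells and 1 of 5 of those lower. It stood in 1 of 10 windows of members lower with 79-6 than with DMSO. Chek2, Mdc1 and Msh6 were called in no comparison. A match is only a run of letters, and binding was not measured. The following stretches, from 220 bases before to 10 after the start, show the octamer in capitals in genes that behaved differently: Bard1, at chr1:71102963-71103192 (minus strand), and Rad51c, at chr11:87404945-87405174 (minus strand), rose from fresh to DMSO, Brca2, at chr5:150522401-150522630 (plus strand), was lower with 79-6 than with DMSO, and Xrcc6, at chr15:82016149-82016378 (plus strand), fell from fresh to DMSO. In Brca2, Rad51c and Xrcc6 the octamer reads on the opposite strand.
Bard1: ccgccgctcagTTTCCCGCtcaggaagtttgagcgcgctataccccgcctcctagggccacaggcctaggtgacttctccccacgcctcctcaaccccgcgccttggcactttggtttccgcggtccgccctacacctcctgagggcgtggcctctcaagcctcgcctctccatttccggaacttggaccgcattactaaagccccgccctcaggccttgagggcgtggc
Rad51c: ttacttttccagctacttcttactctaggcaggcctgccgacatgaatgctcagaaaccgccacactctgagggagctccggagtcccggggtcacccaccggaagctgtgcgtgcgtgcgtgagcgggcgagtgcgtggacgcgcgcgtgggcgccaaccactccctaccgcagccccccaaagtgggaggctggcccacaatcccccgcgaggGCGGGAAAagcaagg
Brca2: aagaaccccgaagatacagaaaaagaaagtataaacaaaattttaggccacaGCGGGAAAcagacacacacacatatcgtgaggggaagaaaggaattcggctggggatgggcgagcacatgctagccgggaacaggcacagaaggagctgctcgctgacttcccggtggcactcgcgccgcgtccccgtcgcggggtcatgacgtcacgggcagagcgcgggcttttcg
Xrcc6: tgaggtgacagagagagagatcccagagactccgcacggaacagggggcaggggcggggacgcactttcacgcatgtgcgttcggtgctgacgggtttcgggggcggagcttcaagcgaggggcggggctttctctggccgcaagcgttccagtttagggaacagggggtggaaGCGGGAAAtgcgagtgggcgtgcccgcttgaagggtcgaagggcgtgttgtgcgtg

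The median intensity of the arrays lay between 99.3 and 103.6. T-lineage markers were present, with Thy1 at 12.78 to 13.26 and Cd3e at 12.94 to 13.46 on the log2 scale. The 2 arrays of a group differed for a typical member by a median of 0.07 log2 units in fresh, 0.08 in DMSO and 0.13 in 79-6, and by at most 0.27 (Rad51c), 0.20 (Brip1) and 0.36 (Palb2). Of the 36 members, 30 were higher on 79-6 replicate 1 than on replicate 2, by a median of 0.12 over all 36, while 44.6% of all genes were. Markers of other cell types moved with the groups. For macrophages and dendritic cells the summed linear intensity over 14 genes was 9798 and 15015 on the fresh arrays, 26622 and 27926 with DMSO and 34255 and 38123 with 79-6. For thymic epithelium, over 12 genes, the sum was 11339 and 11274, then 3522 and 4982, then 4378 and 4370 in the same order. For granulocytes and mast cells, over 12 genes, it was 4034 and 4571, 4254 and 3844, and 2986 and 4204. Most of it on the fresh arrays was Cpa3, named after its values were seen, with group means of 2910, 954 and 354 in linear intensity. Mesenchyme and endothelium markers, 10 genes, summed to 5032 and 5410, 3847 and 4418, and 4317 and 4411. NK and innate lymphoid markers, 10 genes, summed to 10008 and 11774, 8614 and 8479, and 10681 and 10467, and 6 erythroid genes to 981 and 1368, 634 and 628, and 617 and 727. Epithelial signal was thus lower and macrophage signal higher on all 4 cultured arrays than on both fresh ones. Over 10 T-lineage genes the sum was 57615 and 56303, 47498 and 48421, and 46444 and 48223. The part of these markers in the results was not tested. In cell mixtures, fewer cells of a type and less RNA per cell cannot be told apart.

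What stimulated culture did to repair genes was asked by setting DMSO against fresh; culture, time, vehicle and anti-CD3 change together in this first comparison. The genes that rose, by 1.28-fold to 1.66-fold, included 6 of 8 in homologous recombination and 2 of 5 in the Fanconi anaemia route, whereas those that fell, by 1.24-fold to 1.36-fold, were 3 of 6 in end joining and ligation, Atm and Trp53bp1. Of 36 members 12 were higher and 5 lower by limma, where 8.89% of all genes were called higher and 10.7% lower. Among genes above the 75th percentile of mean log2, 3 of 12 members were higher, against 17.8% of 4984 genes, and 4 of 12 lower, against 14.6%, so at that brightness the share of higher members is nearer to the background. The arrays of the groups did not overlap for 18 members that lay higher (31.9% of all genes) and 12 that lay lower (28.1%). The median change of the members was 0.13 on the log2 scale and that of all genes 0.02. All of these changes were smaller than 2-fold. G2 and mitosis genes rose in 22 of 22 cases, with a median of 0.66, and S phase genes in 8 of 25, with a median of 0.03. In the same comparison thymic epithelium markers had 11 of 12 lower (median -1.26), NK and innate lymphoid markers 6 of 10 lower and 1 higher, erythroid markers 3 of 6 lower and 1 higher, and T-lineage markers 5 of 10 lower and 3 higher. Macrophage and dendritic cell markers had 7 of 14 higher and none lower, and granulocyte and mast cell markers 6 of 12 higher and 1 lower. Mesenchyme and endothelium markers had 3 of 10 lower and 1 higher. Their part in the changes of the members was not tested.

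**Figure D1:**
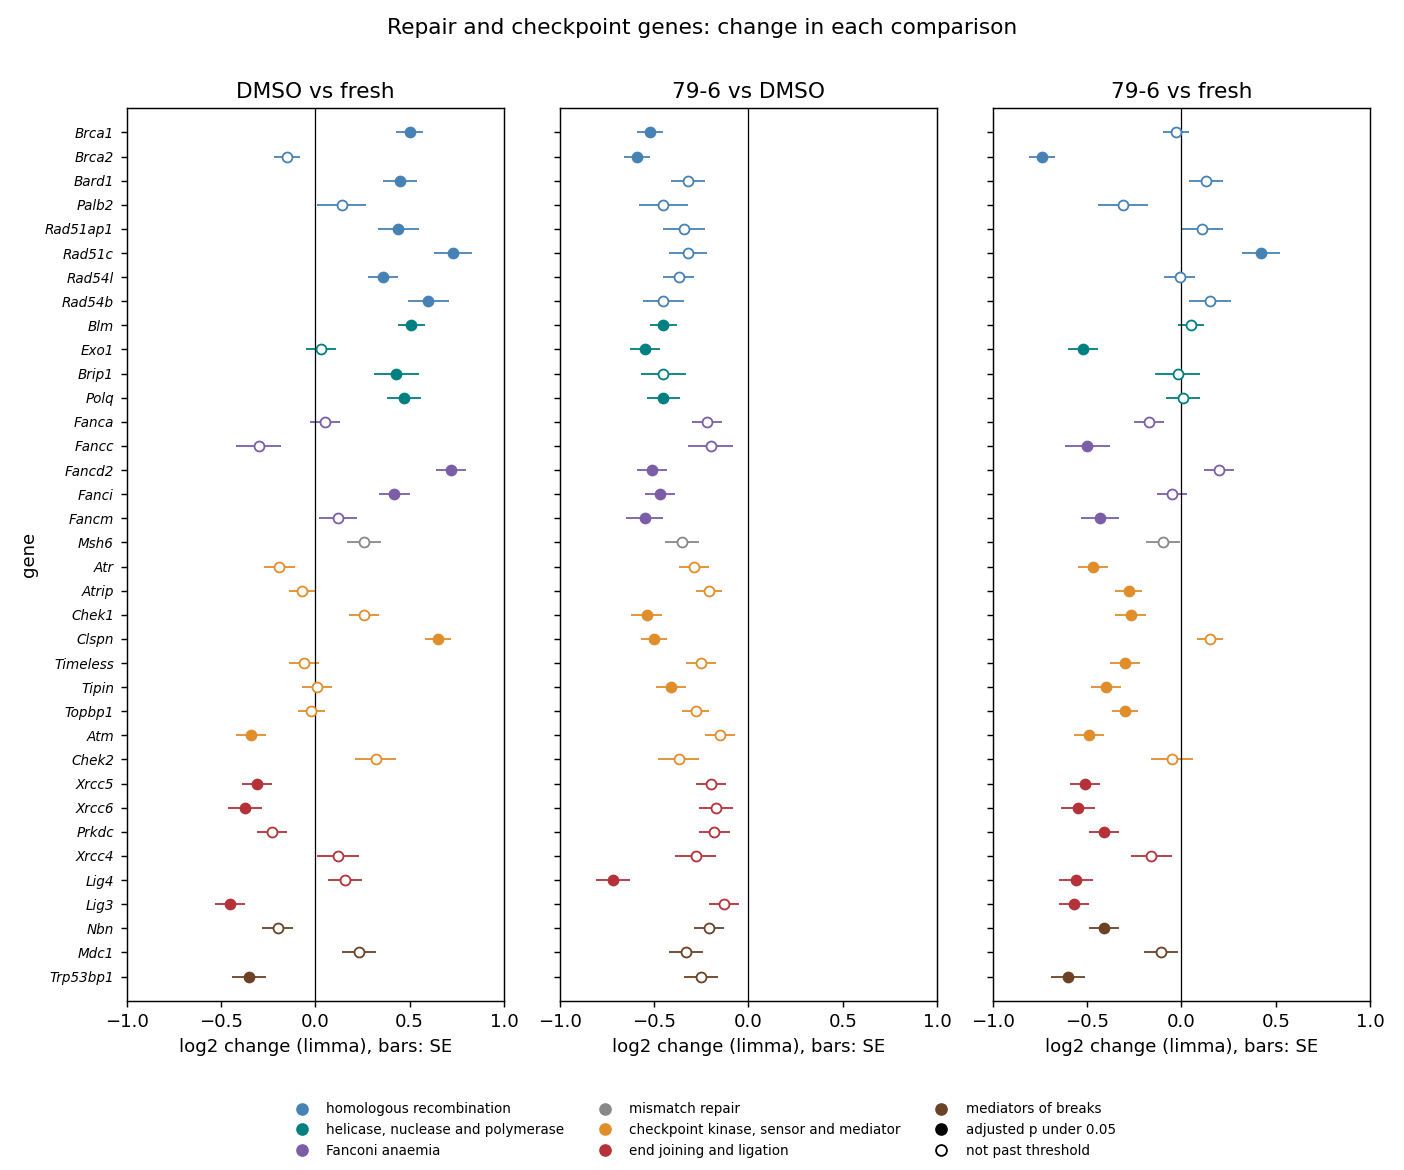
Log2 change with its SE (limma) of each of the 36 members in the 3 comparisons, coloured by role; filled points had an adjusted p under 0.05. In the middle panel all 36 points lie left of 0, whereas in the left panel 23 lie right of it and 13 left.

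Among the 8 measured genes of homologous recombination 6 rose and none fell, with a median of 0.45. Rad51c, which acts in recombination repair of breaks, read 7.12 and 7.39 in fresh cells, 8.01 and 7.96 with DMSO and 7.74 and 7.61 with 79-6. Its rise from fresh to DMSO was 0.73 ± 0.10 (SE, adjusted p = 0.00277), the largest among the members, and the groups did not overlap. Brca1, which promotes end resection and recruits Brca2 through Palb2, read 8.92 and 8.86, then 9.42 and 9.34, then 8.89 and 8.83 in the same order of arrays. It rose by 0.50 ± 0.07 (adjusted p = 0.00343). Its obligate partner Bard1, with which it forms a ubiquitin ligase, went from 9.44 and 9.24 to 9.82 and 9.76, a rise of 0.45 (adjusted p = 0.0124). The Bard1 rise was 0.62 and 0.46 on its other probe sets.

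The DNA translocases of homologous recombination rose as well. Rad54b went from 8.64 and 8.51 to 9.25 and 9.11 (0.60 ± 0.11, adjusted p = 0.00888), and Rad54l from 8.74 and 8.70 to 8.99 and 9.17 (0.36 ± 0.08, adjusted p = 0.0232). Rad51ap1, which stimulates strand invasion, went from 7.80 and 7.83 to 8.24 and 8.27 (0.44 ± 0.11, adjusted p = 0.0304). In none of these 3 genes did DMSO and fresh arrays overlap. Brca2, a mediator of strand exchange, did not pass the test and lay slightly lower in DMSO (-0.15, adjusted p = 0.223), and its bridge to Brca1, Palb2, gave 0.14 (adjusted p = 0.535).

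Of the helicases, nuclease and polymerase that process recombining ends, 3 of 4 rose. Blm, the helicase that dissolves joined recombination intermediates, went from 9.37 and 9.29 to 9.84 and 9.83 (0.51 ± 0.07, adjusted p = 0.00284). Polq, the polymerase of microhomology-mediated end joining, went from 7.99 and 8.08 to 8.45 and 8.55 (0.47 ± 0.09, adjusted p = 0.00945). Brip1, a helicase bound by Brca1, rose by 0.43 ± 0.12 at an adjusted p of 0.0490. The resection nuclease Exo1 was at 9.21 and 9.29 in fresh cells and 9.23 and 9.32 with DMSO, so its arrays overlapped (0.03, adjusted p = 0.853).

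In the Fanconi anaemia group 2 of 5 rose. They encode the pair of proteins that are clamped onto DNA at a crosslink. Fancd2 read 8.59 and 8.54 in fresh cells and 9.32 and 9.24 with DMSO, a rise of 0.72 ± 0.08 (adjusted p = 9.0e-04), and Fanci, its partner, rose by 0.42 ± 0.08 (adjusted p = 0.00840) from 8.52 and 8.55 to 8.93 and 8.98. Fanca and Fancc, of the ubiquitin ligase core complex, and Fancm, the translocase that anchors it, gave 0.05, -0.30 and 0.12 and did not pass. Msh6, which recognises mismatches, gave 0.26 (adjusted p = 0.0805).

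Among the 9 checkpoint genes 1 rose and 1 fell. Clspn, the adaptor through which Atr activates Chek1, went from 8.27 and 8.18 to 8.84 and 8.92 (0.65 ± 0.07, adjusted p = 0.0010). Atm, the kinase that responds to broken ends, went the other way, from 9.55 and 9.60 to 9.30 and 9.17 (-0.34 ± 0.08, adjusted p = 0.0207). The remaining 7 did not pass: Chek2 gave 0.32, Chek1 0.26, Tipin 0.01, Topbp1 -0.02, Timeless -0.06, Atrip -0.07 and Atr -0.19.

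End joining and ligation genes had 3 lower and none higher of 6, with a median of -0.27. Both subunits of Ku, the ring that captures broken ends, fell: Xrcc6 (Ku70) from 10.47 and 10.53 to 10.09 and 10.16 (-0.37 ± 0.09, adjusted p = 0.0222), and Xrcc5 (Ku80) from 9.99 and 9.89 to 9.60 and 9.67 (-0.31 ± 0.08, adjusted p = 0.0350). Lig3, the ligase of single-strand break repair and of mitochondrial DNA, fell by 0.45 on the log2 scale (SE 0.08, adjusted p = 0.00879), from 9.72 and 9.61 to 9.17 and 9.27. Prkdc, the kinase that Ku recruits, gave -0.23 (adjusted p = 0.0937), and Xrcc4 and Lig4, which together seal the ends, gave 0.12 and 0.16. Trp53bp1, which shields ends from resection, fell with the Ku genes, from 9.09 and 9.14 to 8.76 and 8.76 (-0.35 ± 0.09, adjusted p = 0.0263). Nbn, of the Mre11 complex, and Mdc1, the scaffold on phosphorylated histone H2AX, gave -0.20 and 0.23 and did not pass.

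Each array weighs heavily in these counts. Without fresh replicate 1 there were 7 higher and 0 lower members, without fresh replicate 2 there were 7 and 1, without DMSO replicate 1 there were 8 and 1, and without DMSO replicate 2 there were 6 and 1; calls that were lost then had adjusted p-values of 0.0523 to 0.239. Brca1, Rad51c, Blm, Fancd2 and Clspn were the 5 of 17 called members that kept the call in all 6 fits. With arrays centred on their median 14 members were higher and 3 lower, Atm (adjusted p = 0.0504) and Xrcc5 (0.0936) losing the call, and over all genes the split moved from 1773 higher and 2129 lower to 2388 and 1716.

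The effect of the compound was read from 79-6 against DMSO, both after 40 h of stimulation, in the second comparison. This comparison shares the DMSO arrays with the first. All 36 members had a lower mean with 79-6 than with DMSO, and 12 were called lower and none higher (limma), where 1.98% of all genes were called lower and 2.38% higher. The called genes fell by 1.33-fold to 1.64-fold and came from every role group except mismatch repair and the break mediators. The median change was -0.34 over the members and 0.02 over all genes. As the members were chosen with earlier results of these data known, their share of calls beside that of all genes is a description only. Among 85 other repair genes 9 were lower and 1 higher, with a median of -0.14. In 35 of 36 members both 79-6 arrays lay below both DMSO arrays, against 22.2% of all genes, and Fancc was the exception; both lay above in 0 members and 26.8% of all genes. Bright probe sets pass more often, and among genes above the 75th percentile of mean log2 4 of 12 members were lower and none higher, against 3.6% of 4984 genes in either direction. Bcl6 itself, the named target of 79-6, read 8.98 and 9.17 with DMSO and 8.54 and 8.51 with 79-6 (-0.55, adjusted p = 0.0251), a call lost without either DMSO array or either 79-6 array (up to 0.147).

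**Figure D2:**
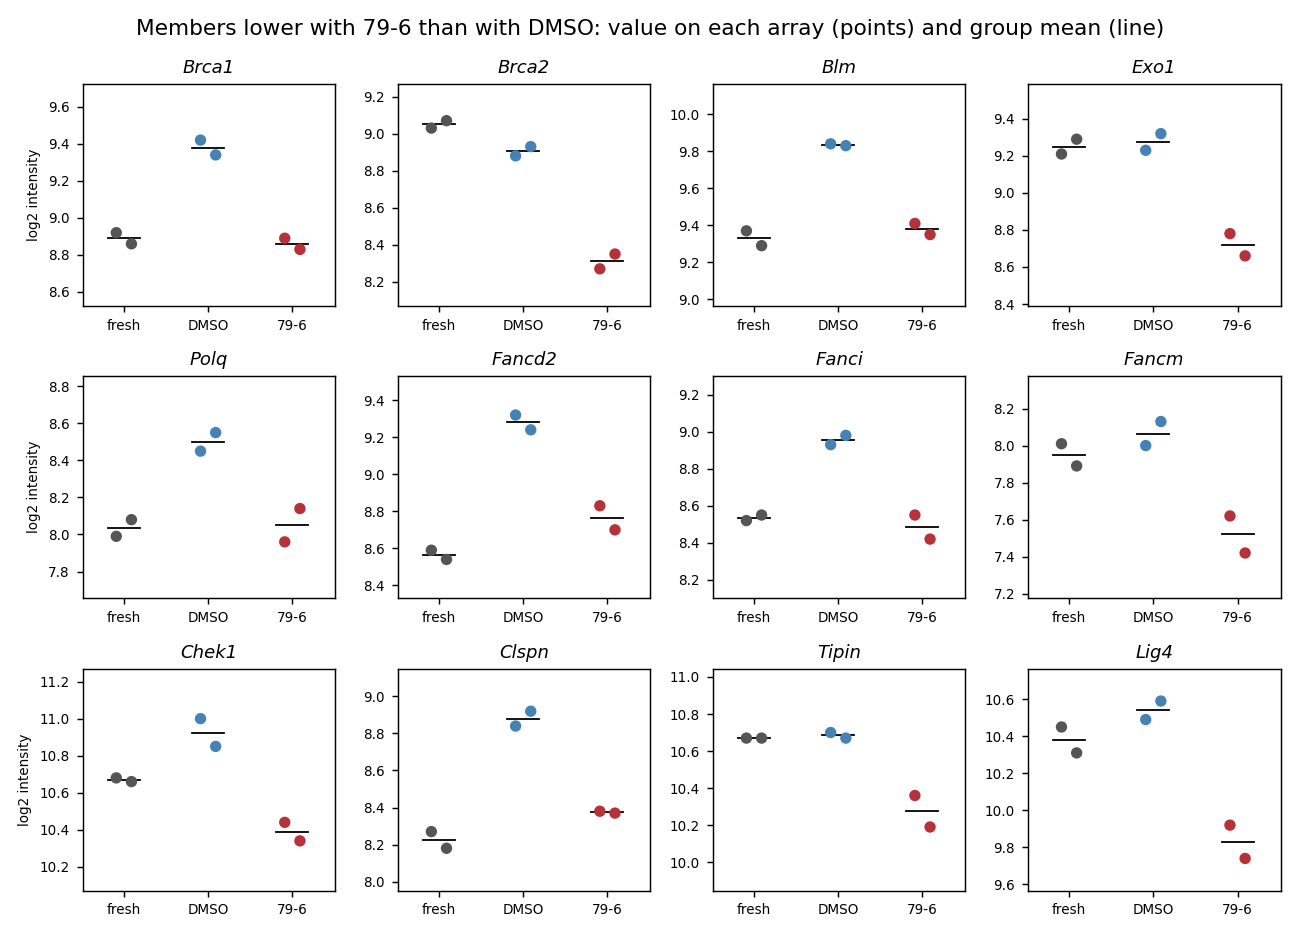
Log2 intensity on each of the 6 arrays (points) and group means (lines) for the 12 members called lower with 79-6 than with DMSO; each panel spans the same log2 range around its own gene. Brca1, Blm, Polq, Fancd2, Fanci and Clspn were called higher with DMSO than in either other group. Brca2, Exo1, Fancm, Chek1, Tipin and Lig4 were called lower with 79-6 than in either other group. The split follows the calls, and Chek1 and Lig4 also had both DMSO arrays above both fresh ones.

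Lig4, the ligase of end joining, fell furthest. It read 10.45 and 10.31 in fresh cells, 10.49 and 10.59 with DMSO and 9.92 and 9.74 with 79-6, a difference of -0.72 ± 0.09 (adjusted p = 0.0123), so 79-6 arrays stood below all 4 others. Its cofactor Xrcc4 gave -0.28 (adjusted p = 0.232), Xrcc5 -0.20, Prkdc -0.18, Xrcc6 -0.17 and Lig3 -0.13, none of which passed.

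Brca2 and Brca1 fell in the homologous recombination group. Brca2 read 9.03 and 9.07 in fresh cells, 8.88 and 8.93 with DMSO and 8.27 and 8.35 with 79-6 (-0.59 ± 0.07 against DMSO, adjusted p = 0.00926). Brca1 fell by 0.52 on the log2 scale (SE 0.07, adjusted p = 0.0155) to the values given above, which lay below both DMSO arrays and overlapped the fresh ones. Rad54b and Palb2 (both -0.45), Rad54l (-0.37), Rad51ap1 (-0.34), and Bard1 and Rad51c (both -0.32) had adjusted p-values of 0.0579 to 0.147. The group's median was -0.41. Bard1 gave -0.35 and -0.48 on its other probe sets, and the mean of its probe sets was called lower.

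All 4 end-processing genes were at -0.45 or lower, and 3 passed. Exo1, not called from fresh to DMSO, read 8.78 and 8.66 with 79-6 against 9.23 and 9.32 with DMSO (-0.55 ± 0.08, adjusted p = 0.0169). Blm went from 9.84 and 9.83 to 9.41 and 9.35 (-0.45 ± 0.07, adjusted p = 0.0215) and Polq from 8.45 and 8.55 to 7.96 and 8.14 (-0.45 ± 0.09, adjusted p = 0.0379). Brip1 had the same difference with a wider spread between the 79-6 arrays, 9.55 and 9.21, and did not pass (adjusted p = 0.0942).

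Fanconi anaemia genes had 3 of 5 lower. Fancm went from 8.07 ± 0.09 (SD, n = 2) with DMSO to 7.52 ± 0.14 (SD, n = 2) with 79-6, its 79-6 arrays at 7.62 and 7.42 (-0.55 ± 0.10, adjusted p = 0.0285). Fancd2 fell by 0.51 on the log2 scale (SE 0.08) to 8.83 and 8.70 (adjusted p = 0.0194), and Fanci by 0.47 (SE 0.08) to 8.55 and 8.42 (adjusted p = 0.0238). The core complex genes Fanca (-0.22) and Fancc (-0.20) did not pass, and neither did Msh6 (-0.35, adjusted p = 0.0678).

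Of the 9 checkpoint genes 3 were called lower. Chek1, the effector kinase, read 10.68 and 10.66 in fresh cells, 11.00 and 10.85 with DMSO and 10.44 and 10.34 with 79-6 (-0.54 ± 0.08 against DMSO, adjusted p = 0.0186). Its adaptor Clspn fell to 8.38 and 8.37 (-0.50 ± 0.07, adjusted p = 0.0170). Tipin, which with Timeless steadies the fork, read 10.67 on both fresh arrays, 10.70 and 10.67 with DMSO and 10.36 and 10.19 with 79-6 (-0.41 ± 0.08, adjusted p = 0.0391). Below the threshold were Chek2 (-0.37), Atr (-0.29), Topbp1 (-0.28), which activates Atr, Timeless (-0.25), Atrip (-0.21), the partner of Atr, and Atm (-0.15). Mdc1 (-0.33), Trp53bp1 (-0.25) and Nbn (-0.21) did not pass either; the second, dimmer Nbn probe set gave 0.08.

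Genes of the cell cycle lay lower with 79-6 too. S phase genes had 10 of 25 called lower and all 25 below 0, with a median of -0.33, and G2 and mitosis genes had 3 of 22 called and all 22 below 0, with a median of -0.27. Among 16 targets of p53, the transcription factor that responds to DNA damage, none was called in either direction by limma. Their median was 0.06, and 0 had an unadjusted p under 0.05. The listed targets Cdkn1a and Bax were not analysed here. T-lineage markers had none of 10 called (3 with an unadjusted p under 0.05) and a median of 0.03. Macrophage and dendritic cell markers had 2 of 14 higher, with a median of 0.53, and NK and innate lymphoid markers 4 of 10 higher and 1 lower, with a median of 0.73. Granulocyte and mast cell markers were mixed. Of the 12, 5 lay above 0, among them S100a8 (0.51) and S100a9 (0.41), neither of them called. In this list 4 of 12 were called lower and none higher, with a median of -0.17. These 4, named after their values were seen, were the mast cell protease Cpa3 (-1.43, adjusted p = 0.00363) and the granule proteins Mpo (-0.86), Prtn3 (-0.80) and Ctsg (-0.74). Cpa3 kept the call whichever array was left out, whereas Mpo and Prtn3 lost it without either DMSO array or either 79-6 array, and Ctsg without DMSO replicate 1 or 79-6 replicate 2 (up to 0.156). Thymic epithelium markers had 1 of 12 lower and a median of 0.10, and erythroid markers none of 6 called by limma (1 with an unadjusted p under 0.05). Mesenchyme and endothelium markers had 1 of 10 lower and 0 higher, with a median of 0.20. The part of these markers in the lower repair genes was not tested.

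**Figure D3:**
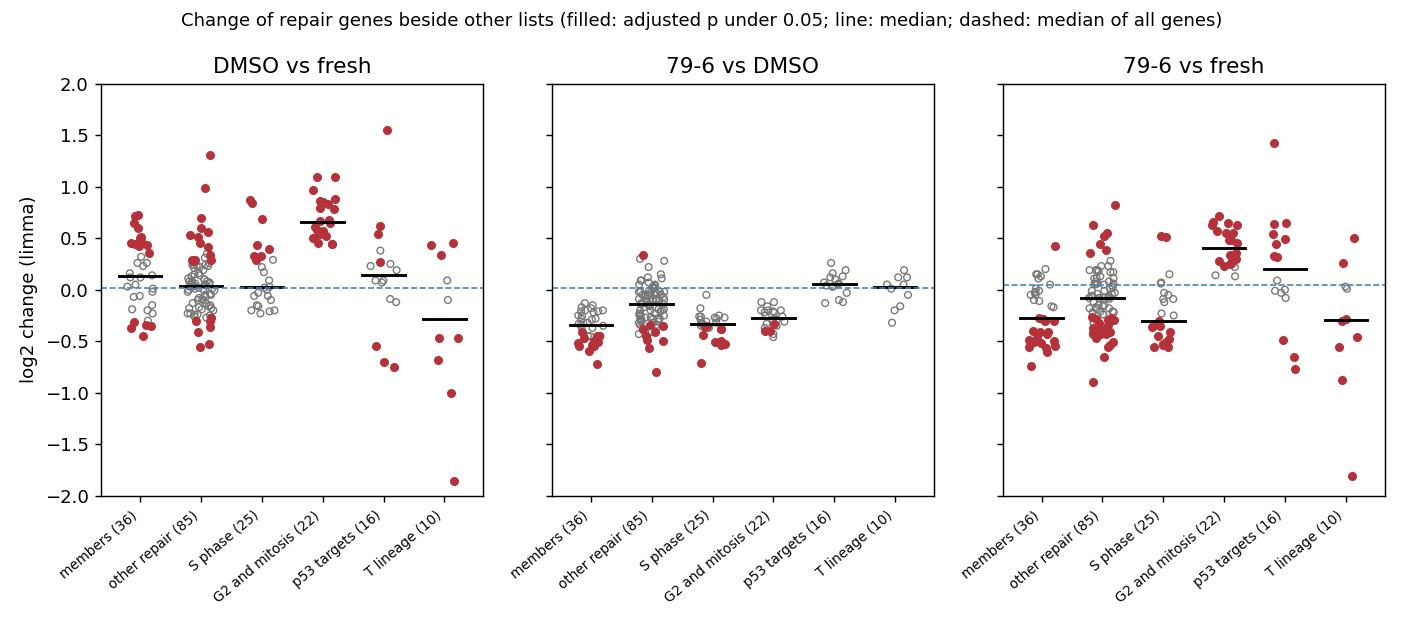
Log2 change (limma) of every measured gene of 6 lists in the 3 comparisons, with the number of genes in parentheses; filled points had an adjusted p under 0.05, black lines are list medians and the dashed line is the median of all genes. With 79-6 against DMSO the members (median -0.34), S phase genes (-0.33) and G2 and mitosis genes (-0.27) lie below the dashed line at 0.02, and p53 targets (0.06) and T-lineage markers (0.03) lie around it.

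Leaving out single arrays changed the calls of this second comparison. All 36 members stayed below 0 in each of the 6 fits, with a median between -0.41 and -0.27. For the 35 members whose 79-6 and DMSO arrays did not overlap, leaving out an array cannot change the sign. That sign therefore adds nothing to the full fit. Without DMSO replicate 1 or DMSO replicate 2, 0 of the 12 calls remained, with adjusted p-values of 0.0683 to 0.169 and 0.0761 to 0.193. Without 79-6 replicate 2, Brca2 alone of the 12 kept the call. Without 79-6 replicate 1, Polq lost it, while Palb2, Rad51ap1, Rad54b and Brip1 were newly called. Over all genes the lower calls went from 394 to 43, 18 and 38 in the first 3 of these fits. Polq and Tipin also lost the call without either fresh array (adjusted p = 0.0602 and 0.0682). With arrays centred on their median 15 members were lower, and over all genes the split moved from 475 higher and 394 lower to 456 and 684.

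The third comparison, 79-6 against fresh cells, shares its arrays with both others, so its values are given beside theirs and add no independent evidence. Here 18 members were lower and 1 higher (limma), where 13.9% of all genes were called lower and 12.0% higher, and the medians were -0.28 and 0.05. Arrays did not overlap for 20 lower members (27.7% of all genes) and 3 higher ones (36.8%). Among genes above the 75th percentile of mean log2, 8 of 12 members were lower, against 21.7%. S phase genes had 13 of 25 lower and 2 higher (median -0.30), and G2 and mitosis genes 18 of 22 higher and 0 lower (median 0.41). Thymic epithelium markers had 11 of 12 lower (median -1.29) and macrophage and dendritic cell markers 13 of 14 higher (median 1.24). T-lineage markers had 6 of 10 lower and 2 higher. The part of these lists in this comparison was not tested. End joining had 5 of 6 lower, checkpoint genes 7 of 9, and homologous recombination 1 lower and 1 higher of 8.

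A rise in DMSO and a fall with 79-6 are not independent, as both use the same DMSO arrays with opposite sign. For 6 members that rose in DMSO and fell with 79-6, the difference between 79-6 and fresh did not pass. Its 95% intervals, not adjusted for the number of genes, were -0.20 to 0.15 for Brca1, -0.11 to 0.22 for Blm, -0.19 to 0.22 for Polq, -0.23 to 0.13 for Fanci, -0.02 to 0.32 for Clspn and 0.02 to 0.39 for Fancd2. The difference did not pass either for Bard1, Rad51ap1, Rad54l, Rad54b and Brip1, which had risen in DMSO (differences of -0.02 to 0.15). Their 95% intervals, likewise unadjusted, were -0.08 to 0.34 for Bard1, -0.15 to 0.37 for Rad51ap1 and -0.21 to 0.19 for Rad54l. For Rad54b and Brip1 they were -0.11 to 0.41 and -0.31 to 0.27. Intervals this wide do not show a return to the fresh level. Both 79-6 arrays lay above both fresh arrays for Fancd2 (0.20) and Clspn (0.15), though neither was called. Rad51c was the single member called higher with 79-6 than in fresh cells, by 0.42 ± 0.10 (limma, adjusted p = 0.0234). That call was lost without fresh replicate 1 (0.28, adjusted p = 0.132) or 79-6 replicate 1 (0.35, adjusted p = 0.0882).

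A further 6 members were called lower with 79-6 than in either other group. Brca2 had the largest difference from fresh cells, -0.74 ± 0.07 (adjusted p = 4.3e-04), followed by Lig4 (-0.56, adjusted p = 0.00482), Exo1 (-0.52, adjusted p = 0.00317), Fancm (-0.43, adjusted p = 0.0151), Tipin (-0.40, adjusted p = 0.0101) and Chek1 (-0.27, adjusted p = 0.0449). The Chek1 call was lost with arrays centred on their median (0.0646). Leaving out single arrays also lost the calls of Chek1, Tipin and Fancm against fresh cells.

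In 5 members the fall was already called in DMSO, and 79-6 lay lower again without passing against DMSO. Trp53bp1 read 8.42 and 8.61 with 79-6 and stood -0.60 ± 0.09 from fresh cells (adjusted p = 0.00231). Lig3 gave -0.57, Xrcc6 -0.55, Xrcc5 -0.51 and Atm -0.49, with adjusted p-values of 0.00240 to 0.00357. In all 5 the arrays lay in the order fresh above DMSO, though 79-6 and DMSO differed by 0.13 to 0.25 log2 units only.

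Another 7 members were called in this comparison alone, which was not tested as a difference from the other comparisons. They were Fancc (-0.50), Atr (-0.47), Prkdc (-0.41), Nbn (-0.41), Timeless (-0.30), Topbp1 (-0.30) and Atrip (-0.28), with adjusted p-values of 0.00602 to 0.0287. Their means ran from fresh down through DMSO to 79-6, as those of 13 members in all did, while 15 had DMSO highest and 79-6 lowest and 8 had DMSO highest and fresh lowest. The Nbn call rests on its brighter probe set: the other gave 0.26, and the mean of both was not called (adjusted p = 0.470). Chek2, Fanca, Mdc1, Msh6, Palb2 and Xrcc4 passed in none of the 3 comparisons.

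Without fresh replicate 1 the third comparison had 10 lower members, with lost calls at 0.0592 to 0.175, and without fresh replicate 2, 79-6 replicate 1 or 79-6 replicate 2 it had 13, 18 and 12, with lost calls at 0.0541 to 0.146, 0.0546 to 0.0882 and 0.0724 to 0.170. Brca2, Exo1, Atr, Atm, Xrcc5, Xrcc6, Lig4, Lig3, Nbn and Trp53bp1 kept the call in all 6 fits.

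Of the other repair genes 85 were measured. From fresh to DMSO 14 rose and 7 fell, where 8.89% and 10.7% of all genes did, with a median of 0.04. With 79-6 against DMSO 1 was higher and 9 lower, where 2.38% and 1.98% of all genes were, with a median of -0.14 and 69 of 85 below 0. From fresh to DMSO the largest rises were in Neil3, a glycosylase of S phase cells (1.31 ± 0.09, adjusted p = 1.4e-04), Dntt, the terminal transferase that adds bases to V(D)J ends (0.99), and Gen1, a resolvase of recombination junctions (0.70). Falls were led by the base excision genes Apex1 (-0.56) and Ung (-0.53), an endonuclease and the uracil glycosylase, and by Ercc6 (-0.41), of transcription-coupled repair. The calls of Apex1 without DMSO replicate 2 (0.0502), of Ung without that array or fresh replicate 2 (up to 0.0604) and of Ercc6 without fresh replicate 1 or DMSO replicate 1 (up to 0.0522) were lost. With 79-6 against DMSO, Dntt (-0.80 ± 0.10, adjusted p = 0.0103), the translesion polymerase Rev1 (-0.57) and the glycosylase Mbd4 (-0.50) were furthest down, and Rad23b, a damage sensor of nucleotide excision repair, was the single gene higher (0.34, adjusted p = 0.0491), a call that 9 of the 12 alternative fits did not keep. Without either DMSO array Dntt, Rev1 and Mbd4 lost the call too, and without 79-6 replicate 2 Rev1 and Mbd4 did, with adjusted p-values up to 0.106. Against fresh cells the 79-6 group had 7 higher and 26 lower, beside 12.0% and 13.9% of all genes, with Apex1 (-0.90), Ung (-0.65) and Parp1 (-0.56), the sensor of nicks, lowest, and Neil3 (0.82), the end-joining polymerase Polm (0.63) and Uimc1 (0.55), which recruits Brca1 to ubiquitin at breaks, highest; Polm lost the call without fresh replicate 2 (0.0526).

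Among 16 p53 targets 4 rose and 3 fell from fresh to DMSO, including the death receptor Fas (1.55), Trp53inp1 (0.62) and Btg2 (0.54) upward and Perp (-0.75), Phlda3 (-0.70) and Aen (-0.55) downward, Perp losing the call without fresh replicate 2 (0.0564). Against fresh cells the 79-6 group had 8 higher and 3 lower of these. Fas (1.42), Btg2 (0.65) and Trp53inp1 (0.64) were again highest, and Perp (-0.77), Phlda3 (-0.65) and Aen (-0.49) lowest. The higher ones included genes not called from fresh to DMSO, and the comparisons were not tested against each other. Thy1 gave 0.43, -0.16 and 0.26 in the 3 comparisons in order, and Rag1 gave -0.34, -0.28 and -0.63. How the Rag1 probes map to the deleted part of the gene was not checked, so this signal says nothing of the genotype.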

How the data were processed

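Thy1.2+ cells of 3 groups were hybridised to 1-colour Affymetrix whole-transcript arrays, 2 arrays a group. RMA and oligo, an R package, are named in the submitters' processing notes; their versions and settings are not given. The deposited intensity values are linear (8.75 to 25316), so log2 was taken here before anything else. Arrays carry no counts, and their number limits the precision.

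Of 34760 probe sets, 21640 had 1 gene symbol in the platform annotation, 1321 several and 11799 none. The brightest 1-symbol probe set over the 6 arrays stood for each of 19937 genes. All 6 arrays were fitted with 1 mean per group (limma 3.58.1, R 4.3.3, lmFit and eBayes; degrees of freedom 3 residual, 4.24 prior). Tests were two-sided, p-values were adjusted over the 19937 genes by Benjamini-Hochberg, and the threshold was 0.05. The fit was tested on simulated data. A change is a difference of log2 group means with its standard error (SE); group means carry standard deviations (SD).

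Members and lists were chosen with earlier results of these data known. Every member is named; of other repair genes and p53 targets, up to 3 called genes a direction and comparison. Alternatives were a replicate block, centring on the array median, eBayes with trend and robust settings, leaving out dim genes, averaging probe sets, fitting only the groups compared, and leaving out each array. Whether replicate numbers pair arrays is not stated; deviations of same-numbered arrays correlated at 0.0036, 0.0948 and -0.0740 across all genes and at 0.05, 0.22 and 0.34 across the 36 members (fresh with DMSO, fresh with 79-6, DMSO with 79-6). As not every pair exceeded 0.1, no pairing was taken. Promoter sequences are RefSeq's (GRCm38.p6); no build is named for the arrays.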

Additional observations from a re-analysis of the deposited data

How the results depend on the processing

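No member changed direction in a call under any alternative run, and where arrays do not overlap, leaving 1 out cannot change it. Of 648 member changes recomputed under the 6 alternatives that kept all arrays, 623 kept their side of the threshold, 19 gained a call and 6 lost it. The 648 include changes not called in the main fit, which could not lose a call. The main fit called 17, 12 and 19 members in the 3 comparisons in order. Leaving out 1 array lost more calls than those alternatives did, with fewer arrays in each such fit. With arrays centred on their median, members lower in DMSO than in fresh cells numbered 3, the median change was 0.19 for that comparison and -0.39 for 79-6 against DMSO. With trend and robust settings 18 members were lower with 79-6 than with DMSO, and for averaged probe sets the median change against fresh cells was -0.22. Leaving out each array gave, from fresh to DMSO, 6 to 12 higher members, 0 to 5 lower ones and a median of 0.08 to 0.19; for 79-6 against DMSO 0 to 15 lower members and a median of -0.41 to -0.27; and for 79-6 against fresh 0 to 1 higher, 10 to 18 lower and a median of -0.32 to -0.23. The upper ends from fresh to DMSO, 12 higher and 5 lower, came only from fits without a 79-6 array, which that comparison does not use. Every fit without a fresh or DMSO array gave fewer members in both directions, as listed with that comparison. With the replicate block 14 members were lower with 79-6 than with DMSO and 19 lower than in fresh cells, and no call was lost. The numbers are not known to pair arrays. The causes of these shifts were not tested. Groups of 2 arrays leave changes of these sizes near the threshold.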
